A study of Mus musculus with 14 samples.

Results

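Tuft cells are rare epithelial cells of the gut that sense the contents of the lumen. The tuft cell markers described here are 10 genes, Pou2f3, Dclk1, Gnat3, Trpm5, Rgs13, Sh2d6, Avil, Alox5, Il25 and Il17rb, taken by symbol from the 46855 gene symbols of the deposited expression table. All 10 were found in it. The 14 libraries come from whole ileum of wild-type C57BL/6N mice. Untreated mice aged 24 days (P24, n = 4) were compared with untreated mice aged 14 days (P14, n = 4). Mice given rmIl22, which is recombinant mouse IL-22, at a dose of 0.1 µg/g in 100 µL of phosphate-buffered saline (n = 3) were compared with mice given saline alone (PBS, n = 3). Both were injected into the peritoneum on days 14 and 15 and killed on day 16. The age field of the labels instead gives day 24 for rmIl22 mice and day 14 for PBS mice, so the groups were taken from the titles. The series asks how the ileum changes around weaning and what IL-22 changes before it. Libraries carry the numbers of the deposited columns, which are 1, 2, 6 and 8 for P24 and 1, 2, 4 and 5 for P14.

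In the mouse small intestine, the transcription factor Pou2f3 is required to form tuft cells. These cells use parts of the taste transduction machinery, among them the G protein subunit gustducin (Gnat3) and the cation channel Trpm5. They make the cytokine IL-25, which acts through the receptor chain Il17rb on group 2 innate lymphoid cells, whose IL-13 in turn acts on the epithelium and raises tuft and goblet cell numbers. They also make leukotrienes through Alox5.

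The labelled tissue was checked first. Fabp6, the ileal bile acid binding protein, ran from 14400 to 21400 TPM (relative transcript abundance, with reads divided by gene length and by a total for the library) in P24 libraries and from 346 to 1180 TPM in P14 libraries. Epcam, an epithelial surface protein, was between 1990 and 2750 TPM in every library. Reg3g, an antimicrobial lectin known to respond to IL-22, had 3980, 8480 and 3510 TPM in the rmIl22 libraries against 417, 260 and 52.2 TPM in the PBS libraries. The reads recovered from the TPM summed to between 35.6 and 46.5 M per library. Xist, which is transcribed in female cells, reached 1 TPM in 3 of 4 P24, 2 of 4 P14, 2 of 3 rmIl22 and 0 of 3 PBS libraries, so sex moved with the rmIl22 comparison. In whole tissue, a change in the number of tuft cells and a change in RNA per tuft cell cannot be told apart.

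The promoters of the 4 markers with the largest ratios between P24 and P14, and of Avil, are printed because these are the members whose values separated the 2 ages. Each window holds 250 bases before and 50 from the annotated start of transcription (RefSeq, GRCm38.p6), 5′ to 3′ on the gene's strand, with the start base in capitals.
Gnat3 chr5:17962320-17962619 (+ strand): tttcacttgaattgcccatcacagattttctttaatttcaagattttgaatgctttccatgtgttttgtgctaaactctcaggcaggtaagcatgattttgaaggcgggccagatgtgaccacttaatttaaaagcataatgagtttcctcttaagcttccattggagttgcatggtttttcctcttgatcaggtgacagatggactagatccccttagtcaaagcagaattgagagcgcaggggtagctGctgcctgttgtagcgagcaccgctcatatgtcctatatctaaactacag
Trpm5 chr7:143094593-143094892 (- strand): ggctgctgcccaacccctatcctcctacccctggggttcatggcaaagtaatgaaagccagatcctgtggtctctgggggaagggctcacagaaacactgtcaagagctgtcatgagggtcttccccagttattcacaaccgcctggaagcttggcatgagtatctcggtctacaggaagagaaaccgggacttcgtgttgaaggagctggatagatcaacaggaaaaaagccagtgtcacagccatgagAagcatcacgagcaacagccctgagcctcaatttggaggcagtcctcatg
Rgs13 chr1:144177323-144177622 (- strand): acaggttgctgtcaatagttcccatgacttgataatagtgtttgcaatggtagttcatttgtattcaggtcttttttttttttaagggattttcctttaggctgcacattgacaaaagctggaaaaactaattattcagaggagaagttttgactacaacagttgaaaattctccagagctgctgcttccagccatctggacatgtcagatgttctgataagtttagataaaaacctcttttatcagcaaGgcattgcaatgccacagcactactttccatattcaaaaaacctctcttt
Sh2d6 chr6:72519987-72520286 (- strand): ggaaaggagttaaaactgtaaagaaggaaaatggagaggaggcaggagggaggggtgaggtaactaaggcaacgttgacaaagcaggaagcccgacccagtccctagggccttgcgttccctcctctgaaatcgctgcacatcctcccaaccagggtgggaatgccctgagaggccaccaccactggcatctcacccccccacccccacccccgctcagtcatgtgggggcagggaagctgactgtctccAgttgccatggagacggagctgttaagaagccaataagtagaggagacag
Avil chr10:127000459-127000758 (+ strand): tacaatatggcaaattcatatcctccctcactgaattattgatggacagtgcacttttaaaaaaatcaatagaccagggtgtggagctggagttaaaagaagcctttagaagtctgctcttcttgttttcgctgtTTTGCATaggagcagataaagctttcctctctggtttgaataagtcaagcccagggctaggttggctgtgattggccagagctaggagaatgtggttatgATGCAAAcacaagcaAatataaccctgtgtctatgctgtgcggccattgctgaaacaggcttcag
Pou2f3 belongs to the POU domain factors, whose octamer motif is ATGCAAAT, and these letters were searched on both strands. Neither the octamer nor its reverse complement stood in any of the 9 windows held for 8 members, while 1.74% of all 32851 mouse windows of the same length held it. The shorter ATGCAAA, which every octamer match contains, stood in the Avil window alone, at positions -115 (reverse strand) and -15 from the start base, both in capitals above. It stood in 4.63% of all windows. Promoters of Pou2f3 and Il25 were not analysed here. A match of letters is a description only.

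All 10 markers were of low abundance in whole ileum. Averaged over the 14 libraries, Rgs13 was at 2.15 TPM, Dclk1 at 1.33, Avil at 1.25, Alox5 at 1.03 and Il17rb at 0.969 TPM. Trpm5 averaged 0.59, Sh2d6 0.48, Gnat3 0.288, Pou2f3 0.23 and Il25 0.0318 TPM. The reads behind these levels ran from 10 for Il25 to 6059 for Dclk1, summed over the 14 libraries. The TPM of all 10 markers together ranged from 10.9 to 23.1 in P24 libraries, from 3.76 to 5.69 in P14 libraries, from 5.15 to 7.56 in rmIl22 libraries and from 6.13 to 6.6 in PBS libraries. Only the P24 range stood clear of the other 3.

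**Figure D1:**
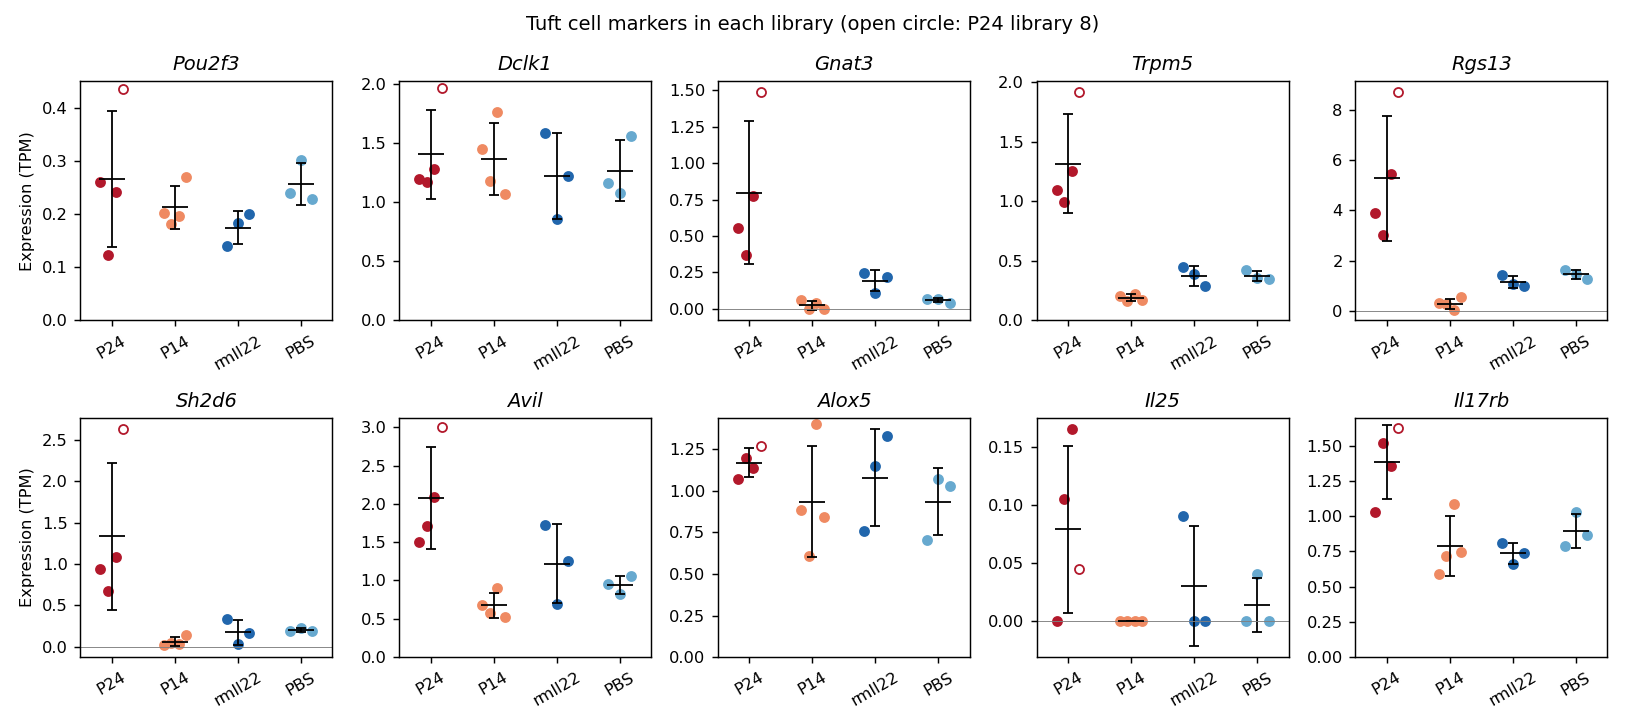
Expression in TPM (vertical axis, linear) of the 10 tuft cell markers in every library of the 4 groups (horizontal axis). Points are libraries, the black dash is the group mean and the bars are 1 SD; the open circle is P24 library 8. Gnat3, Trpm5, Rgs13, Sh2d6 and Avil are higher in all 4 P24 libraries than in any P14 library, whereas Pou2f3, Dclk1 and Alox5 overlap.

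The first comparison, P24 against P14, addresses the change across weaning. The markers did not move as a block. Gnat3, Trpm5, Rgs13, Sh2d6 and Avil were higher in each P24 library than in any P14 library, by ratios of group means from 3.08 for Avil to 32.6 for Gnat3. Of 19224 genes with a mean of at least 5 reads, 11.5% were higher in this way. Il17rb was higher by a ratio of 1.76, with groups that overlapped by 1 library. Pou2f3 and Dclk1, the lineage factor and the most widely used tuft marker, differed by ratios of 1.25 and 1.03 with overlapping groups.

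Gnat3 encodes the alpha subunit of gustducin, the G protein of taste receptor signalling. It had 0.552, 0.37, 0.776 and 1.49 TPM in P24 libraries 1, 2, 6 and 8, against 0.0621, 0, 0.0358 and 0 TPM in P14 libraries 1, 2, 4 and 5. The P24 values stood on 94 reads in all and the P14 values on 3, and the 2 P14 libraries with no read had a floor (3 reads) of 0.0899 and 0.0986 TPM. Per unit of depth the ratio of reads was 33.3, with an exact 95% interval of 11 to 164 that covers counting error only. The groups were far apart (two-sided exact permutation test of the mean TPM, p = 0.0286, the smallest that 4 against 4 libraries can give).

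Trpm5, the calcium-activated channel that depolarises taste and tuft cells, had 1.09, 0.997, 1.25 and 1.92 TPM in P24 libraries 1, 2, 6 and 8. In P14 libraries 1, 2, 4 and 5 it had 0.205, 0.161, 0.221 and 0.172 TPM. The lowest P24 library was above the highest P14 library, and the ratio of means was 6.93 (exact permutation p = 0.0286). Of its exon bases, 220 lie opposite Tssc4, a gene at a mean of 16 TPM, and the strand setting of the counting is not given in the sources used here.

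Rgs13, a regulator that shortens G protein signalling, was the most abundant marker at P24. It had 3.91, 3.04, 5.43 and 8.71 TPM in P24 libraries 1, 2, 6 and 8, against 0.307, 0.27, 0.0588 and 0.542 TPM in P14 libraries 1, 2, 4 and 5. All P24 values were above all P14 values. The log2 fold change of TPM + 1 was 2.21 (SE 0.24, limma, Benjamini-Hochberg adjusted p = 1.3e-05), and the ratio of mean TPM was 17.9. No P14 library reached 1 TPM, so Rgs13 entered this fit only through P24, and its p-value is a description.

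Rgs13 is also made by germinal centre B cells, so a list of 12 B cell and germinal centre genes is set beside it. Their summed level was 115, 37.7, 35 and 146 TPM in P24 libraries 1, 2, 6 and 8, against 54.5, 33.2, 44.7 and 53.6 TPM in P14 libraries 1, 2, 4 and 5. The median gene of the list was above its group in P24 libraries 1 and 8 and in P14 libraries 1 and 5, and below it in the other libraries of each age. Of the 12 genes, 8 were tested, 0 rose and 1 fell (S1pr2, log2 fold change -1.0, limma adjusted p = 4.42e-05), with a median log2 fold change of 0.86. With TPM rescaled to a common median per library 2 rose and 1 fell, and in a test on reads (limma voom) 1 rose and 1 fell. Of all genes in the unscaled test, 14.6% rose and 43.7% fell. The part of B cells in the Rgs13 values was not tested.

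Sh2d6, an SH2 domain adaptor that marks tuft cells, had 0.938, 0.677, 1.09 and 2.64 TPM in P24 libraries 1, 2, 6 and 8. P14 libraries 1, 2, 4 and 5 had 0.0243, 0.0515, 0.028 and 0.141 TPM, on 1, 2, 1 and 6 reads. The groups did not overlap (exact permutation p = 0.0286), and the ratio of reads per unit of depth was 21.3 with a counting interval of 11.3 to 45. The length implied by the recovered reads was 1.028 times that of the annotation used here.

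Avil encodes advillin, an actin-binding protein of the tuft cell's microvillar bundle that sensory neurons also make. It had 1.5, 1.71, 2.09 and 3 TPM in P24 libraries 1, 2, 6 and 8, against 0.685, 0.579, 0.903 and 0.528 TPM in P14 libraries 1, 2, 4 and 5. The groups were apart, with a log2 fold change of TPM + 1 of 0.86 (SE 0.16, limma adjusted p = 9.05e-04) and a ratio of means of 3.08. Avil too was under 1 TPM in every P14 library and entered the fit only through P24, so this p-value is a description. Avil shares 165 exon bases with Tsfm on the opposite strand, a gene at 9.12 TPM on average.

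Il17rb, the receptor chain for IL-25, had 1.03, 1.52, 1.36 and 1.63 TPM in P24 libraries 1, 2, 6 and 8, against 0.589, 0.721, 1.09 and 0.747 TPM in P14 libraries 1, 2, 4 and 5. P14 library 4 lay above P24 library 1, and the other P14 libraries lay below every P24 library. The log2 fold change was 0.42 (SE 0.14, limma adjusted p = 0.0257). Without P14 library 1 or 2, or P24 library 2, 6 or 8, the log2 fold change was 0.36 to 0.42 and the call was lost, with an adjusted p between 0.0589 and 0.0761. In limma voom on reads the call held without each of the 8 libraries in turn (adjusted p 0.0037 to 0.0229). Il17rb also shares 141 exon bases with Actr8, at a mean of 20.7 TPM on the opposite strand.

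Il25, the cytokine that tuft cells send to innate lymphoid cells, was at the limit of detection. Its reads were 0, 2, 4 and 1 in P24 libraries 1, 2, 6 and 8, and 0 in each of the 4 P14 libraries, where 3 reads would have been 0.115 to 0.137 TPM. A difference was not detectable at this depth (exact permutation p = 0.143).

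Pou2f3 had 0.262, 0.124, 0.243 and 0.436 TPM in P24 libraries 1, 2, 6 and 8, against 0.203, 0.181, 0.197 and 0.271 TPM in P14 libraries 1, 2, 4 and 5. Its lowest and its highest value were both at P24, and the groups overlapped (exact permutation p = 0.571). With 6 to 25 reads a library, the 95% interval of its log2 fold change in the read-based test described next was -0.60 to 1.15.

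Dclk1, a microtubule-associated kinase that neurons also make, had 1.2, 1.17, 1.28 and 1.97 TPM in P24 libraries 1, 2, 6 and 8. P14 libraries 1, 2, 4 and 5 had 1.45, 1.18, 1.76 and 1.07 TPM. The groups overlapped throughout, and the log2 fold change was 0.02 with a 95% interval of -0.31 to 0.35 (limma adjusted p = 0.908). Markers of enteric neurons and glia fell at the same time: of 12 genes, 10 were tested, 9 fell and 0 rose, with a median log2 fold change of -0.83 against -0.25 over all genes tested, of which 43.7% fell. Among them were Ret (-2.68), a receptor kinase of enteric neurons, the glial S100b (-1.09) and the neuronal Uchl1 (-0.99). The summed level of the 12 genes was 18.8 to 30.2 TPM in P24 libraries and 59.5 to 87.4 TPM in P14 libraries. Its part in the Dclk1 values was not tested.

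Alox5, the lipoxygenase that starts leukotriene synthesis and that granulocytes and mast cells also make, had 1.07, 1.2, 1.14 and 1.27 TPM in P24 libraries 1, 2, 6 and 8. P14 libraries 1, 2, 4 and 5 had 0.886, 0.61, 1.4 and 0.844 TPM. P14 library 4 was the highest of the 8, and the log2 fold change was 0.18 (95% interval -0.14 to 0.50, limma adjusted p = 0.308). With TPM rescaled to a common median per library the value was 0.34 and passed (adjusted p = 0.0333). Of 14 mast cell and granulocyte genes, 6 were tested, 0 rose and 1 fell (Ccr3, -0.55), whereas 2 rose and 0 fell with that scaling, and their summed level was 28.3 to 43.3 TPM at P24 and 22.5 to 52.9 TPM at P14. Of all genes tested without that scaling, 14.6% rose and 43.7% fell. Tpsab1, a mast cell tryptase named after its values were seen, had 0 reads in every P24 library.

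In the fit over all genes, which kept genes of at least 1 TPM in at least 4 libraries, 5 of the 10 markers were tested and 3 rose (Rgs13, Avil and Il17rb), while 0 fell. Of all 14651 genes tested, 58.3% passed, 14.6% as higher and 43.7% as lower. Rgs13 and Avil passed the filter only through P24, and Il17rb mainly so, and their count is therefore a description. The median gene was at -0.25 on the log2 scale, and after rescaling to a common median 51.19% of called genes were higher, against 25.11% without it. Under that scaling 4 of the 5 markers rose, where 29.7% of all genes tested did, with log2 fold changes of 2.36 for Rgs13, 1.03 for Avil, 0.57 for Il17rb and 0.34 for Alox5.

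The 5 markers below the filter were better covered by a test on reads (limma voom on recovered reads, genes of a mean of at least 5 reads per library), added after the data had been seen. It tested 9 markers and 6 rose, where 55.7% of 19224 genes passed and 15.2% rose. Gnat3 and Sh2d6 reached that mean only through P24, so this count too is a description. The log2 fold changes of reads were 4.55 for Gnat3 (adjusted p = 2.89e-04), 4.37 for Rgs13, 4.29 for Sh2d6 (3.26e-04), 2.79 for Trpm5 (1.55e-05), 1.64 for Avil and 0.87 for Il17rb (0.00694). Alox5 (0.44, adjusted p = 0.127), Pou2f3 (0.27, 0.584) and Dclk1 (0.09, 0.719) did not pass. The authors' deposited table listed 9 of the 10 markers, with 7 past an adjusted p of 0.05 and higher, as were 20.2% of the genes listed there. In the authors' deposited table the log2 fold change was 5.34 for Gnat3, 4.67 for Sh2d6, 4.39 for Rgs13, 3.10 for Trpm5, 1.94 for Avil, 1.14 for Il17rb and 0.65 for Alox5 (adjusted p = 0.0192).

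**Figure D2:**
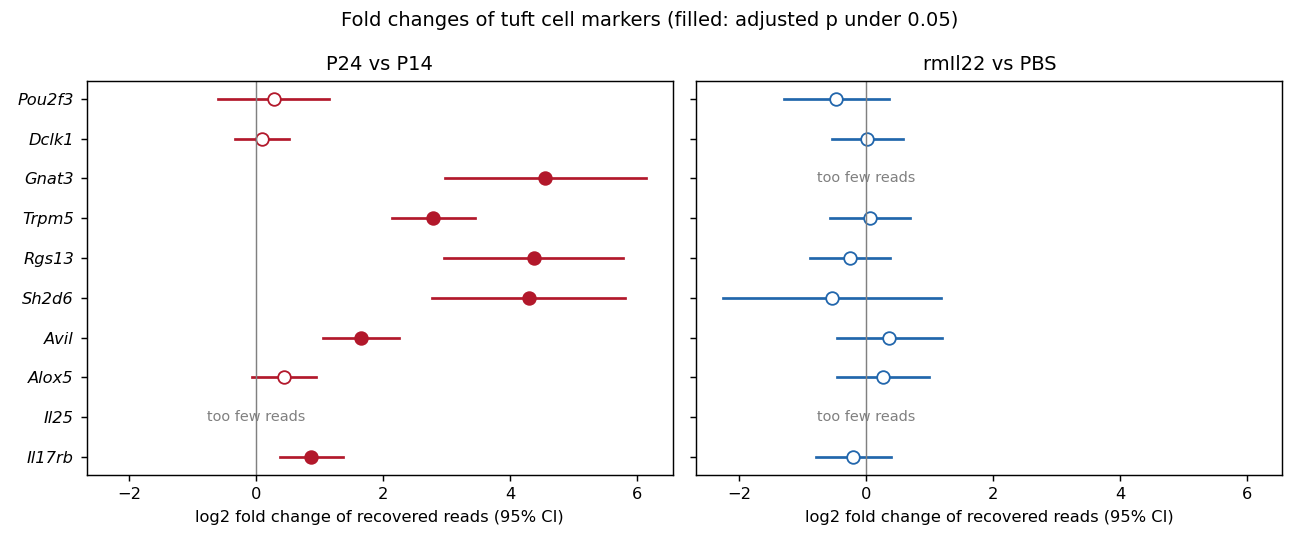
Log2 fold changes of recovered reads (horizontal axis) with 95% confidence intervals for each marker (rows) in P24 against P14 (left) and rmIl22 against PBS (right), from limma voom. Filled circles passed an adjusted p of 0.05. On the left 6 markers pass, from 0.87 for Il17rb to 4.55 for Gnat3, and on the right 0 of 8 pass.

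The libraries of P24 were not alike in these markers. Library 8 held the highest value of 9 of the 10 markers, at a median of 1.51 times the geometric mean of its group, and library 2 held the lowest value of 6. Without library 8 the ratios of mean TPM were 23.1 for Gnat3, 14.7 for Sh2d6, 14.0 for Rgs13, 5.86 for Trpm5, 2.62 for Avil and 1.65 for Il17rb. The read-based test without it still passed 6 markers, with log2 fold changes of 4.19, 3.90, 4.08, 2.58, 1.44 and 0.76 in the same order. Pou2f3 stood at a ratio of 0.984 and Dclk1 at 0.893 without it.

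Other lists moved with library 8 too. Its median log2 deviation from the group was 3.22 for the B cell genes, 0.43 for enteric neurons and glia and 0.34 for mast cells and granulocytes, against 0.60 for the tuft markers. Library 1, where the B cell genes deviated by 2.67, had tuft markers at a median deviation of -0.31. The epithelial genes deviated by -0.14 in library 8, and its Vil1, an enterocyte villin, was the lowest of the group at 904 TPM. The part of other cells in the spread between libraries was not tested.

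**Figure D3:**
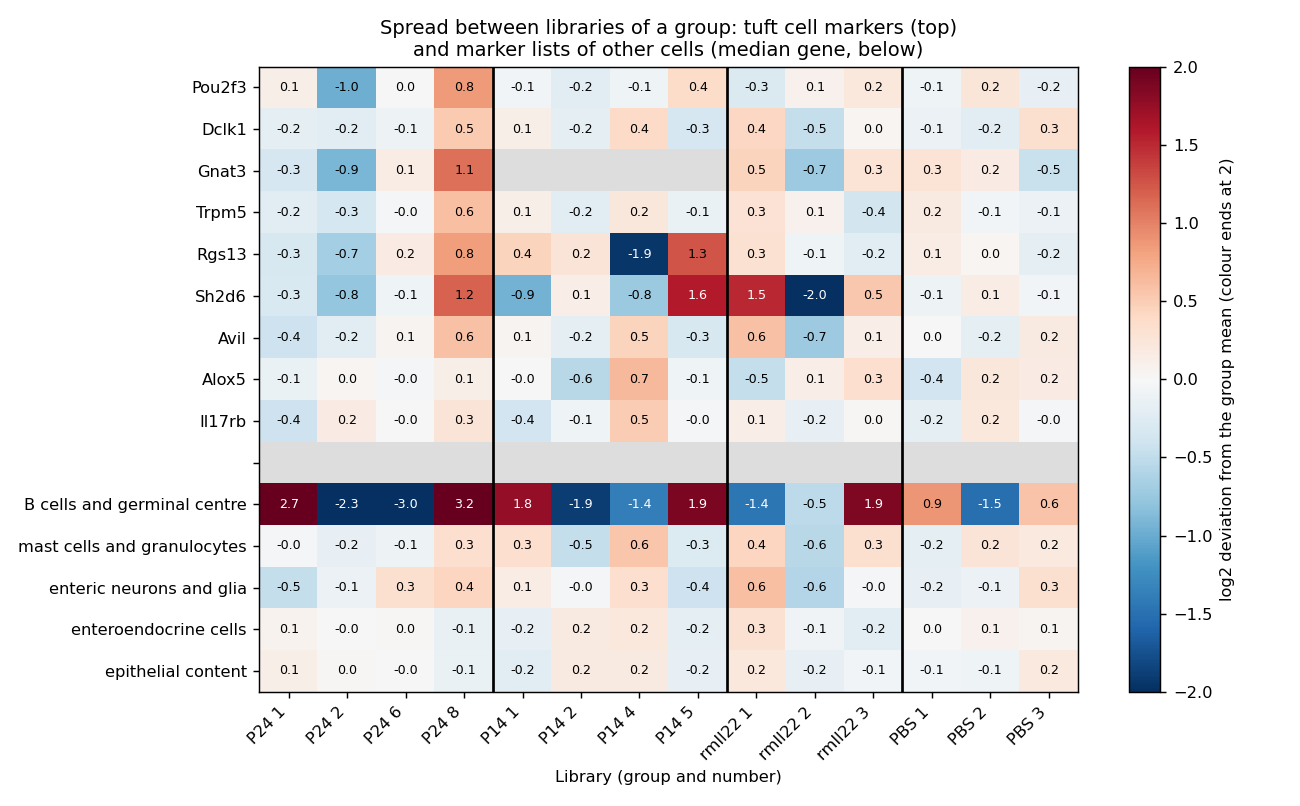
Log2 deviation of each library (columns) from the mean of its group for 9 tuft markers (upper rows) and for the median gene of 5 lists of other cells (lower rows), with red above and blue below the group. Grey cells have a library at 0 reads. P24 library 8 is above its group in all 9 markers, and the B cell genes are high in P24 libraries 1 and 8 and low in P24 libraries 2 and 6.

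The second comparison, rmIl22 against PBS, asks whether IL-22 given before weaning changes the markers. It passed the test for 0 of the 4 markers of at least 1 TPM in at least 3 libraries, where 2.69% of 14456 genes passed (389 genes, limma adjusted p). At an unadjusted p under 0.05, 2235 of the 14456 genes passed and 0 of these 4 markers did, which are too few to set against that share. The read-based test passed 0 of 8 markers, against 1.85% of 18780 genes. Of the rmIl22 libraries only library 1 lacked Xist, as all PBS libraries did. A fit with a term for Xist, added after the data had been seen, therefore sets that library alone against PBS. It cannot adjust the markers for sex. The authors' deposited table for this comparison lists 1102 genes, all with an adjusted p of at most 0.00999, and 0 of the markers.

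Rgs13 had 1.42, 1.08 and 0.984 TPM in rmIl22 libraries 1, 2 and 3, against 1.61, 1.49 and 1.26 TPM in PBS libraries 1, 2 and 3. The groups overlapped, and the log2 fold change was -0.18 with a 95% interval of -0.56 to 0.19 (limma adjusted p = 0.697). Trpm5 had 0.45, 0.389 and 0.285 TPM in rmIl22 libraries and 0.423, 0.358 and 0.344 TPM in PBS libraries, both with a mean of 0.375 TPM. On reads, its log2 fold change was 0.06, with an interval of -0.57 to 0.69.

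Gnat3 had 0.247, 0.11 and 0.218 TPM in the rmIl22 libraries, on 7, 3 and 6 reads, against 0.0686, 0.0635 and 0.0415 TPM in the PBS libraries, on 2, 2 and 1 reads. All rmIl22 values were above all PBS values. The ratio of reads per unit of depth was 3.27 with a counting interval of 1.14 to 11.4, and the exact permutation p was 0.1, the smallest that 3 against 3 libraries can give. Among 18780 genes with a mean of at least 5 reads, 6.24% were higher without overlap. Gnat3 did not reach that mean in these libraries and is not among them.

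Pou2f3 had 0.141, 0.184 and 0.2 TPM in the rmIl22 libraries against 0.241, 0.303 and 0.229 TPM in the PBS libraries. Its groups did not overlap either, with a ratio of 0.68 (exact permutation p = 0.1). Of the 18780 genes with a mean of at least 5 reads, 13.0% were lower without overlap.

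The other markers overlapped between rmIl22 and PBS. Sh2d6 had 0.331, 0.0287 and 0.171 TPM in rmIl22 libraries against 0.188, 0.224 and 0.195 TPM in PBS libraries, and rmIl22 library 2 rested on 1 read. Avil had 1.72, 0.689 and 1.25 TPM against 0.948, 0.826 and 1.06 TPM in PBS (log2 fold change 0.16, interval -0.33 to 0.66). Dclk1 had 1.59, 0.857 and 1.22 TPM in rmIl22 libraries and 1.16, 1.08 and 1.56 TPM in PBS libraries (-0.04, interval -0.47 to 0.40).

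Alox5 had 0.759, 1.15 and 1.33 TPM in rmIl22 libraries and 0.705, 1.07 and 1.03 TPM in PBS libraries (0.10, interval -0.33 to 0.53). Il17rb had 0.809, 0.658 and 0.742 TPM in rmIl22 libraries and 0.787, 1.03 and 0.869 TPM in PBS libraries (exact permutation p = 0.2). Il25 had 2, 0 and 0 reads in rmIl22 libraries and 0, 1 and 0 reads in PBS libraries.

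The rmIl22 libraries were uneven in other cells. The mast cell and granulocyte genes summed to 26.1, 1040 and 175 TPM in rmIl22 libraries 1, 2 and 3 and to 49.4, 95.2 and 23.8 TPM in PBS libraries, led by the neutrophil genes S100a8 and S100a9 at 400 and 627 TPM in rmIl22 library 2. That library held the lowest value of 6 markers, and library 1 the highest of 8. Without rmIl22 library 2, all-gene calls were 1324, and 0 of the markers passed. The B cell genes, at a summed 29 to 52.8 TPM in rmIl22 and 34.7 to 74.4 TPM in PBS libraries, had 0 calls among 8 tested, where 2.69% of all genes tested were called. Their median log2 fold change was -0.9, against -0.05 over all genes tested. On reads it was -3.04, against 0.05. Their part in the Rgs13 values was not tested.

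The effects of age and of rmIl22 were compared directly in a fit of all 14 libraries, as rmIl22 minus PBS less P24 minus P14. Of 6 markers tested, 2 differed, both lower for rmIl22 than for age: Rgs13 by -2.39 (SE 0.33, limma adjusted p = 2.49e-04) and Trpm5 by -0.95 (SE 0.21, adjusted p = 0.00565) on the log2 scale of TPM + 1. Of all 15702 genes, 23.8% differed, and 6.51% in this direction. Trpm5 reached 1 TPM only in P24 libraries 1, 6 and 8, so it entered this fit through the group where it is high, and its value is a description. Without any one of these 3 libraries it was not tested. Rgs13 then passed alone without library 6 or 8, and with Il17rb (-0.62, adjusted p = 0.0427) without library 1. Il17rb (-0.54, adjusted p = 0.0568) and Avil (-0.69, 0.0686) did not pass. On reads, 6 of 9 markers differed, where 31.2% of genes differed and 6.48% in this direction. These markers were at -4.83 for Sh2d6, -4.62 for Rgs13, -3.07 for Gnat3 (limma voom adjusted p = 0.0321), -2.73 for Trpm5, -1.28 for Avil and -1.07 for Il17rb. Gnat3, with 94 of its 118 reads at P24, reached a mean of 5 reads only through P24, so its value and this count are descriptions.

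Ordered by mean TPM, Rgs13 and Trpm5 were lowest at P14, then rmIl22, PBS and P24. Their P14 libraries lay below every rmIl22 library, rmIl22 and PBS overlapped, and every P24 library lay above every PBS library. Sh2d6 had the same order, but its P14 and rmIl22 libraries overlapped. For Gnat3 the order was P14, PBS, rmIl22 and P24, and only P14 and PBS overlapped. Avil and Alox5 ran P14, PBS, rmIl22, P24, and Il17rb ran rmIl22, P14, PBS, P24, with overlap at each step, as for Pou2f3, Dclk1 and Il25. The PBS mice were 2 days older than the P14 mice and had been injected, and the parts of age and injection cannot be told apart.

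A wider set of 59 genes that tuft cells express was set beside the markers. Of these, 44 were tested in P24 against P14, 14 rose and 17 fell. With the common-median scaling 19 rose and 9 fell. Of all 14651 genes tested, 14.6% rose and 43.7% fell, and with that scaling 4350 rose and 4147 fell. The counts of the lists below are to be read beside these shares. Many genes of the set are also made by other cells of the ileum, and its lists are described by counts alone. Sh2d7, Tas1r3 and Sucnr1 entered the fit only through the group where they are high, so these counts are descriptions.

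Among 26 receptor and signalling genes, 17 were tested, 6 rose and 4 fell, with a median log2 fold change of 0.11 against -0.25 over all genes. Sh2d7, an SH2 domain adaptor related to Sh2d6, had 1.53, 1.42, 1.93 and 3.12 TPM in P24 libraries 1, 2, 6 and 8, against 0.0766, 0.0648, 0.0353 and 0.207 TPM in P14 libraries 1, 2, 4 and 5. Its groups were apart, and library 8 was the highest here too (1.42, limma adjusted p = 3.72e-05). No P14 library reached 1 TPM, so Sh2d7 entered the fit only through P24, and its p-value is a description. Plcg2, a phospholipase of calcium signalling that B cells also use, averaged 15.0 ± 3.23 TPM at P24 and 4.12 ± 0.453 TPM at P14 (SD, n = 4 each; log2 fold change 1.62). Il13ra1, the IL-13 receptor chain, averaged 125 ± 12.8 TPM at P24 and 62.1 ± 4.1 TPM at P14 (1.00).

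The 4 that fell were Il4ra (-0.83), the partner of Il13ra1 in the IL-13 receptor, the succinate receptor Sucnr1 (-0.83), Itpr3 (-0.46) and Kctd12 (-0.35), named after their values were seen. Sucnr1 was under 1 TPM in every P24 library and entered the fit only through P14, so its call is a description. Itpr3 and Kctd12 did not pass with the common-median scaling. Tas1r3, the shared subunit of sweet and umami receptors, was the lowest of the 6 that rose (0.47, limma adjusted p = 0.0102), with 1.55 ± 0.268 TPM at P24 and 0.834 ± 0.149 TPM at P14 (SD, n = 4 each). Tas1r3 was under 1 TPM in every P14 library and entered the fit only through P24, so its p-value is a description.

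Of 8 genes for lipid mediators and acetylcholine, 5 were tested, 0 rose and 3 fell. Hpgds, the prostaglandin D synthase of haematopoietic cells and tuft cells, had 1.17, 1.2, 1.08 and 1.56 TPM in P24 libraries 1, 2, 6 and 8, against 24.2, 28, 29 and 21.9 TPM in P14 libraries 1, 2, 4 and 5. It fell by 3.57 on the log2 scale (limma adjusted p = 6.5e-10). Pla2g4a (-0.44) and Ptgs1 (-0.42), which release and convert arachidonic acid, fell as well but did not pass with the common-median scaling, under which 1 gene of the list rose (Ltc4s, 0.59). Of 7 transcription factors, 4 were tested, 0 rose and 2 fell, Nrep (-2.57) and Sox9 (-0.44), and with that scaling Sox9 did not pass while Runx1 rose (0.42).

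Of 18 structural and surface genes all were tested, 8 rose and 8 fell, against 9 and 5 with the common-median scaling. Plac8 (1.39) and Cd24a (1.12), a surface protein of several epithelial lineages, rose, while Hebp1, a haem-binding protein, fell by 3.80 on the log2 scale, to 2.99 ± 0.364 TPM at P24, against 54.9 ± 8.24 TPM at P14 (SD, n = 4 each). Under rmIl22, 43 of the 59 genes were tested, 0 rose and 3 fell, while of all 14456 genes tested 64 rose and 325 fell. These were Hebp1 (-1.27, limma adjusted p = 0.0132), Hpgds (-1.15, 0.0181) and Sucnr1 (-1.22, 0.0491), and Sucnr1 did not pass with the common-median scaling. Sucnr1 was under 1 TPM in every rmIl22 library and entered the fit only through PBS, so its call is a description. The term for Xist set rmIl22 library 1, the only library of its group without Xist, alone against PBS, so it cannot adjust for sex. In that fit the log2 fold changes were -1.30 for Hebp1, -1.29 for Hpgds and -1.0 for Sucnr1. Ethe1 (2.20) and Ildr1 (1.83), both named after their values were seen, were high there, but at 0.14 and 0.35 without rmIl22 library 1. Without PBS library 1, or without PBS library 3, 0 of the wider genes passed, with Hebp1 at -1.12 and -1.30 and Hpgds at -1.11 and -1.07. Without rmIl22 library 1 or 3 Hebp1 alone passed, without PBS library 2 both Hebp1 and Hpgds did, and without rmIl22 library 2 all 3 fell while Atp2a3 and Rgs2 rose. Hpgds had 8.99, 11.9 and 9.29 TPM in rmIl22 libraries 1, 2 and 3 against 25, 19.6 and 26.2 TPM in PBS libraries, and Hebp1 had 13.8, 13.8 and 14.6 TPM against 44.2, 29.4 and 34.2 TPM in PBS. Both groups were apart for each gene.

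**Figure D4:**
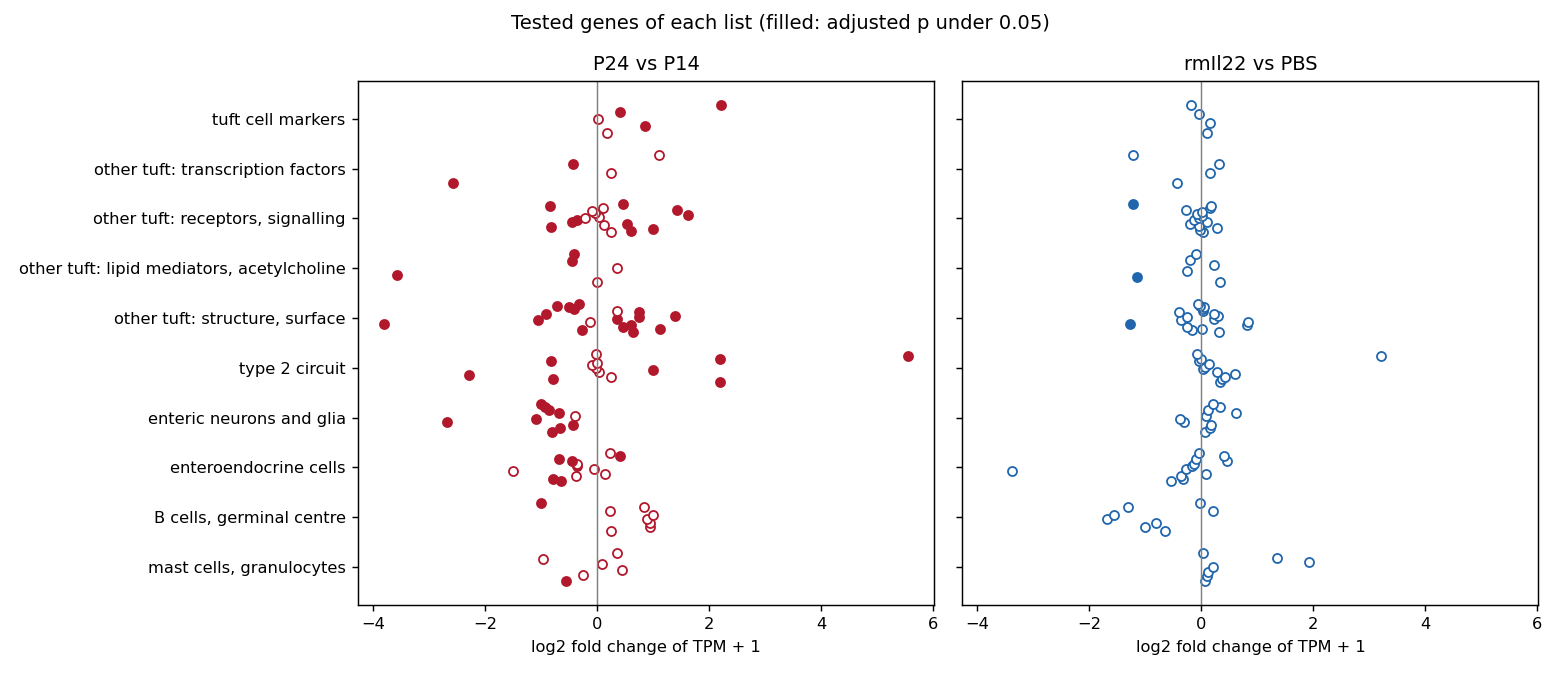
Log2 fold changes of TPM + 1 (horizontal axis) of the tested genes of each list (rows) in P24 against P14 (left) and rmIl22 against PBS (right). Filled circles passed an adjusted p of 0.05. In P24 the 5 tested tuft markers lie at or above 0 while the wider tuft lists spread to both sides. Rgs13 and Avil passed the filter only through P24, and Il17rb mainly so, and this contrast is therefore a description. In rmIl22 only Hebp1, Hpgds and Sucnr1 pass among the lists shown, with no term for Xist. Sucnr1 entered that fit only through PBS.

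The type 2 circuit around tuft cells was covered by 21 genes, of which 13 were tested, 4 rose and 3 fell in P24, against 7 and 3 with the common-median scaling. Without that scaling, 14.6% of all genes tested rose and 43.7% fell. Retnlb, a goblet cell lectin that IL-13 induces, had 60.8, 46.8, 64.5 and 34.3 TPM in P24 libraries 1, 2, 6 and 8, against 0, 0.322, 0 and 0.0587 TPM in P14 libraries 1, 2, 4 and 5 (log2 fold change 5.56, limma adjusted p = 6.42e-10). No P14 library reached 1 TPM, so Retnlb entered the fit only through P24. Its p-value and the count of 4 that rose are descriptions. Areg, an epidermal growth factor receptor ligand, rose (2.19), to 20.9 to 41.8 TPM in P24 libraries against 3.33 to 8.76 TPM in P14 libraries. Cysltr1, a receptor for the leukotrienes that Alox5 starts, fell by 2.29, to 1.95 ± 0.308 TPM at P24 against 13.7 ± 3.47 TPM at P14 (SD, n = 4 each). Of the cytokines, named after their values were seen, Il13, Il5 and Il9 were at the limit. Il13 was at most 0.0392 TPM in any P24 library and 0.0371 TPM in any P14 library. Il5 had 0 reads at P24, and Il9 had 0 reads in all 4 groups. Il4 was low but present, at 0.0912 to 0.287 TPM in P24 libraries and 0.0794 to 0.483 TPM in P14 libraries. Under rmIl22, 12 genes of the circuit were tested and 0 passed, where 2.69% of all genes tested did. Retnlb had 70.2, 2.37 and 3.34 TPM in rmIl22 libraries against 0.0672, 0.124 and 0.0812 TPM in PBS libraries, apart but uneven.

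Other epithelial lineages give the setting. In P24 against P14, all 7 Paneth cell genes tested and 8 of 11 goblet cell genes rose, and 0 fell. Among the goblet cell genes, Retnlb entered the fit only through P24, so that count is a description. Of 12 enteroendocrine genes 1 rose and 5 fell, and of 10 stem cell genes 1 rose and 4 fell. Of all genes tested, 14.6% rose and 43.7% fell, so the falls in these 2 lists were near the share of all genes. With the common-median scaling the counts were 3 and 2 for enteroendocrine genes and 4 and 2 for stem cell genes, against 4350 and 4147 of all 14651 genes. Of 10 epithelial genes 6 rose and 1 fell, with a median of 0.77.

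Genes whose spread between libraries was most like that of the markers were listed as a description, from deviations of log2(TPM + 1) from the group means over the 14 libraries. The mean of Rgs13, Dclk1, Alox5 and Avil, the 4 markers of at least 1 TPM on average, was compared with 14574 genes. Prr11 (r = 0.96), Zfp770 (0.94), Iffo1 (0.93), Zfp14 (0.91) and Cdh19 (0.91) came first. Because the group means were subtracted first, this likeness describes the spread within groups alone and cannot reflect the age difference. Zfp770, Iffo1, Zfp14 and Cdh19 averaged lower at P24 than at P14. Each marker against the mean of the other 3 gave 0.80 for Avil, 0.77 for Dclk1, 0.27 for Rgs13 and 0.03 for Alox5.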

How the data were processed

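RNA depleted of ribosomal RNA was sequenced strand-specifically, per the labels' protocols. The authors deposited TPM per gene symbol and library, and comparison tables with log2 fold changes and adjusted p-values (decimal commas were read as points, and their other columns were not used). Programs named in the submitters' processing notes are FastQC 0.11.2, STAR 2.4.0f, HTSeq 0.6.1p1 and DESeq2 1.14, with mm10. The annotation release and strand setting were not given in the sources used here. A gene with an exon overlap on the other strand is therefore uncertain. P24 and P14 columns carry other numbers than the labels' replicates and were assigned to the group only. Left out were 27 rows with date-like symbols, which held at most 0.0776% of the TPM.

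TPM steps gave whole reads (within 0.01) for all 31189 genes above 0 (100%), and the median library had 42.7 M. The implied length equals the GENCODE M21 exon length for 7 markers, and is 0.878, 0.736 and 1.028 times it for Pou2f3, Il17rb and Sh2d6. No library copied another (chi-square per degree of freedom 30.9 to 255 within groups).

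Each comparison was tested with limma (version 3.58.1, R 4.3.3) with a trended prior variance on log2(TPM + 1), two-sided, with Benjamini-Hochberg adjustment over all genes tested and a threshold of 0.05; this scale understates the change of low genes. Markers below the filter had an exact permutation test of mean TPM (scipy 1.17.1). The scripts were tested on simulated data. The series calls its replicates biological, and p-values measure the spread between these libraries. The markers, lists, tests and alternatives were chosen with earlier results of these data known. All 10 markers are named, and from each other list up to 3 called genes of largest absolute change; any further gene was named after its values were seen. Single values of some B cell genes are not reported here.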

Additional observations from a re-analysis of the deposited data

Results flagged for a closer look

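Dclk1 in P24 was flagged because library 8 (1.97 TPM) stood apart from the other 3 (1.17 to 1.28 TPM): the gap was 0.87 of the group's range, above Dixon's 95% critical value for 4 samples. Chance flags about 1 in 20 groups, and 19 groups of 4 were looked at. The same library was the highest for 9 of the 10 markers.

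Rgs13 and Trpm5 were flagged because the rmIl22 effect differed from the P24 effect, by -2.39 and -0.95 on the log2 scale (limma contrast, adjusted p = 2.49e-04 and 0.00565). Trpm5 passed the filter on low values only through P24, so its value is a description. Rgs13 was higher in 4 of 4 P24 libraries than in any P14 library, while rmIl22 and PBS libraries overlapped.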

How the results depend on the processing

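The calls of Rgs13 and Avil in P24 against P14 held under all 24 alternatives each, with log2 fold changes of 1.97 to 4.8 and 0.72 to 1.79. Both passed the main filter only through P24, so their calls there are descriptions. Il17rb lost its call under 5 of 24, all leaving out 1 library, and Alox5 gained one under 3. The number of markers called was 3, but 6 with no filter on low TPM and 6 in voom on recovered reads (added after seeing the data), and 2 to 4 or, in voom, 6 to 7 when leaving out each library. In rmIl22 against PBS 0 markers were called throughout. There, 389 genes were called, against 98 with no filter, 1058 in a fit of all 14 libraries and 122 with a term for Xist-positive libraries (added after seeing the data), and 4 to 1324 (voom 2 to 2191) leaving out each library. The 3 other tuft genes called, all lower, became 2 others, both higher, with the Xist term, 1 with no filter and 0 to 5 (voom 0 to 7) leaving out each library.

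For the difference of effects, 2 markers became 4 with median-scaled TPM, 4 with quantile normalisation, 6 in voom, and 1 to 4 leaving out each library. Over all genes 3734 became 5945 in voom and 2386 to 5023 leaving out each library. Rgs13 and Trpm5 kept their direction under all alternatives run for them. The causes were not tested.

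The uncalled Dclk1 and Alox5 changed sign. Dclk1 in P24 was at -0.0015 with the Xist term and at -0.08 to 0.10 (voom -0.09 to 0.18) leaving out each library. In rmIl22 it was at 0.01 with median scaling and with voom under both filters, 0.20 with the Xist term, and -0.15 to 0.09 (voom -0.19 to 0.25) leaving out each library. Alox5 in rmIl22 was at -0.13 with the Xist term. In the difference of effects, leaving out each library gave -0.17 to 0.07 for Dclk1 and -0.19 to 0.04 for Alox5.

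A replicate block by number in rmIl22 against PBS called 280 genes and 0 markers, against 389 genes without it. Deviations of same-numbered libraries correlated at r of -0.07, 0.33 and -0.05. These libraries share only a number, and not every library correlated best with the one of its own number. No block was possible for P24 and P14, whose columns carry no replicate number of the labels. Without 1 of 4 libraries the permutation test cannot go below 0.0571, so it was not repeated. Depth limits Il25 (10 reads in all), Gnat3 and Pou2f3.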
